A study of Mus musculus with 21 samples.

Results

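The 10 genes Prg2, Prg3, Epx, Prss34, Mcpt8, Cpa3, Hdc, Fcer1a, Ms4a2 and Il4 are products of eosinophils, basophils and mast cells, and they were followed here across 21 single-colour mouse arrays in 7 groups of 3. They were chosen by symbol, 10 of the 20018 genes with a named probe, with earlier results of the same arrays known. The mean level over the 21 arrays was to select among several probes of a gene, but each of the 10 genes had 1 probe, so that value selected nothing. No threshold was used. Which comparison led to the choice is not recorded, so the calls below describe these arrays and are not independent evidence for it.

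Eosinophils, basophils and mast cells are granulocytes of allergy and of defence against worms, and all of them arise from myeloid progenitors of the bone marrow. Eosinophil granules hold the major basic proteins, which Prg2 and Prg3 encode, and the eosinophil peroxidase encoded by Epx. Basophils and mast cells store proteases and histamine and carry a high-affinity receptor for IgE, whose alpha chain comes from Fcer1a and whose beta chain comes from Ms4a2. Prss34 and Mcpt8 encode serine proteases typical of mouse basophils, Cpa3 the carboxypeptidase of mast-cell granules, Hdc the enzyme that makes histamine, and Il4 a cytokine that basophils and T helper cells secrete. Bach1 and Bach2 are related transcription repressors, and the study asked how they affect the choice between B-cell and myeloid development.

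CLPs are common lymphoid progenitors, from which bone marrow makes lymphocytes, and they came from pooled wild-type (WT) mice or from pooled mice lacking both Bach1 and Bach2 (DD). Multipotent progenitors (MPPs), sorted as Lin-, c-kit+, Sca-1+ and Flt3mid from WT mice pooled 4 to an experiment, were stimulated overnight with SCF, IL-3 and IL-6. They were then infected with a retrovirus carrying GFP alone (control vector) or Bach2 and GFP (Bach2 vector), grown for 2 days in a multi-lineage condition and sorted for GFP. A further group with the Bach2 vector spent 24 h in that condition and 6 days in a B-lineage condition, and was sorted as GFP+ B220+, B220 being a form of CD45 found mainly on B-lineage cells. Follicular B cells (FoB), the recirculating B cells of spleen and lymph node, were WT or Bach2KO and were cultured for 24 h with 10 µg/ml of an anti-IgM fragment. The B220+ cells had no control-vector counterpart, so that vector, culture time, culture condition and the B220 gate cannot be told apart in their comparison with control-vector MPPs. The labels read here state neither age nor sex, nor whether the FoB replicates came from separate mice, and p-values measure only the spread between these samples.

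A level is the log2 spot signal minus the 75th percentile of its array, and a positive value lies above that percentile. The CLP and MPP arrays had 62.6% to 81.5% of their gene spots well above background, and the FoB arrays 50.9% to 58.8%, where low signals are therefore less precisely measured. The number of arrays limits the precision of all values. Of the 2 Bach2 probes, the brighter lay at 1.49 to 3.46 in WT CLPs and at -0.27 to 1.17 in DD CLPs, and at 3.06 to 3.55 in WT FoB and -1.01 to -0.07 in Bach2KO FoB. The dimmer overlapped between WT and DD CLPs, at -7.97 to -5.28 and -8.46 to -7.11, and did not overlap between WT and Bach2KO FoB. In MPPs the dimmer Bach2 probe lay at -8.57 to -6.34 with the control vector, at -3.90 to -1.25 with the Bach2 vector and at -5.12 to -1.54 in B220+ cells, both above every control-vector array and overlapping each other, whereas the brighter overlapped between control-vector MPPs and both groups with the Bach2 vector. Bach1 overlapped between WT and DD CLPs, at 1.87 to 2.17 and 0.88 to 2.41. Fewer cells of a type and less RNA per cell cannot be told apart in these bulk samples.

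Promoter sequences are shown for the members that differed most clearly in the comparisons below and for Ms4a2, which held the most GATA letters. RefSeq promoter entries of build GRCm38.p6 were found for 9 of the 10 genes, and Prg2 had none in the table used. The 250 bases before the start of transcription were searched on both strands for GATAA, the core that GATA factors bind, for TGAGTCA, the core of AP-1 and Bach sites, and for TTGCNNAA, a C/EBP core. Capitals mark GATAA on either strand, which reads TTATC on the reverse strand.
Prss34, chr17:25298144-25298393, forward strand: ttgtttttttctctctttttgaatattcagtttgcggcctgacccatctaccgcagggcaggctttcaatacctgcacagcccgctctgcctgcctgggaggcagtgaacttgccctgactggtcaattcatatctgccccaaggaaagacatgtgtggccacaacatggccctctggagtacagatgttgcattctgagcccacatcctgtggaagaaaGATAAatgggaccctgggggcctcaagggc
Prg3, chr2:84987965-84988214, forward strand: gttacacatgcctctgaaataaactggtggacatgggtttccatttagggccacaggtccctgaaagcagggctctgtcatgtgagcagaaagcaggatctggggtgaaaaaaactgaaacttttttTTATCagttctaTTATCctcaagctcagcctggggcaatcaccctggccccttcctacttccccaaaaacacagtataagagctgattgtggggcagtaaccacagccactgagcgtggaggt
Ms4a2, chr19:11623720-11623969, reverse strand: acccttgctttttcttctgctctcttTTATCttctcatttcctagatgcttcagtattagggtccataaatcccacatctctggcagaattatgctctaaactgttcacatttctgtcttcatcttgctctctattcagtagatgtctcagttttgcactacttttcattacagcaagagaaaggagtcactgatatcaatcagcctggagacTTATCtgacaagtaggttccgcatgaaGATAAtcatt
Hdc, chr2:126618679-126618928, reverse strand: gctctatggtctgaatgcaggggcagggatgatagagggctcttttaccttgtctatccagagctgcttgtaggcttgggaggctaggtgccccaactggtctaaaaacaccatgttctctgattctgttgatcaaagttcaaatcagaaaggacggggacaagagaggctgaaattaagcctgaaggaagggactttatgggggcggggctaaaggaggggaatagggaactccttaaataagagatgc

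GATAA occurred before 5 of the 9 genes, namely Cpa3, Fcer1a, Ms4a2, Prg3 and Prss34, against 22.6% of 32851 promoters of the same length. Ms4a2 held 3 copies, which began 224, 37 and 10 bases before the start, and Prg3 held 2, at 123 and 111 bases. The single copies lay 30 bases before the start of Prss34, 45 before Cpa3 and 92 before Fcer1a. TTGCNNAA occurred before Fcer1a and Il4, 2 of 9 genes, against 9.56% of all promoters, and Il4 held it in 1 of its 2 promoter entries. TGAGTCA occurred before 0 of the 9 genes, against 4.46% of all promoters. None of the motif copies overlapped another motif. These counts say which letters the windows hold and nothing about binding.

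In B220+ cells with the Bach2 vector, 4 of the 10 genes were higher than in control-vector MPPs at an adjusted p under 0.05 in limma, with Benjamini-Hochberg adjustment over 16988 genes. These were Prg2, Prg3, Prss34 and Hdc. All 10 genes had a higher mean in B220+ cells, and 7 did not overlap between the groups. Over all genes tested 12.1% passed, 4.65% passed in the higher direction and 11% did not overlap in that direction. The median difference of the 10 genes was 3.52 on the log2 scale, against -0.29 over all genes.

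Among the eosinophil granule genes, Prg2 lay at -8.08, -5.76 and -4.45 in control-vector MPPs, at -7.64, -5.79 and -5.64 in Bach2-vector MPPs and at 2.77, 2.33 and 3.45 in B220+ cells. Prg3 lay at -6.97, -5.48 and -4.48 in control-vector MPPs, at -4.49, -4.40 and -4.87 in Bach2-vector MPPs and at 0.46, 1.25 and 1.30 in B220+ cells. Every B220+ array was above every other MPP array for both major basic proteins. Prg2 was 8.95 ± 0.87 higher (SE, limma, n = 3 per group, adjusted p = 0.000442) on the log2 scale than with the control vector, which is 494-fold. Prg3 was 6.65 ± 0.56 higher (adjusted p = 0.000241), which is 100.4-fold. The control-vector array 1 was not well above background for either gene, so these folds rest on 2 measured control arrays and 1 at background. The peroxidase gene did not pass. Epx lay at -3.02, -2.97 and -3.33 with the control vector, at -4.04, -3.84 and -3.59 with the Bach2 vector and at -3.10, -4.07 and -1.41 in B220+ cells, which overlapped both other groups. Its difference from the control vector was 0.25 ± 0.56 (limma adjusted p = 0.795).

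Among the proteases, Prss34 lay at -3.56, -4.31 and -3.30 with the control vector, at -3.67, -3.72 and -2.86 with the Bach2 vector and at 3.04, 1.29 and 5.29 in B220+ cells. The B220+ arrays of this basophil protease gene were all above the other 6 MPP arrays, and spread over a wider range than those did. The difference from the control vector was 6.93 ± 0.84 (limma adjusted p = 0.00127), or 122-fold. Mcpt8 and Cpa3 were already high in MPPs. Mcpt8 lay at 2.35, 3.06 and 2.92 with the control vector, at 3.45, 4.02 and 4.297 with the Bach2 vector and at 3.68, 3.62 and 5.25 in B220+ cells. Cpa3 lay at 0.45, 3.27 and 2.20, at 2.83, 4.54 and 4.72, and at 3.76, 2.75 and 5.64 in the same order. B220+ cells were above the control vector without overlap for Mcpt8, overlapped it for Cpa3, and overlapped the Bach2 vector for both. The B220+ cells differed from the control vector by 1.41 ± 0.46 for Mcpt8 (limma adjusted p = 0.0798) and by 2.08 ± 0.90 for Cpa3 (adjusted p = 0.161), and neither passed.

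Hdc separated all 3 groups. It lay at 1.15, 1.66 and 1.82 with the control vector, at 3.71, 4.05 and 4.06 with the Bach2 vector and at 4.91, 5.42 and 5.81 in B220+ cells. The groups had no overlap, and the histamine-forming enzyme gene was lowest with the control vector and highest in B220+ cells. Its difference between B220+ cells and the control vector was 3.84 ± 0.30 (limma adjusted p = 0.000189), or 14.3-fold. Il4 lay at -4.23, -2.38 and -2.41 with the control vector, at -5.93, -3.51 and -4.20 with the Bach2 vector and at -1.72, -3.22 and 0.96 in B220+ cells. The B220+ arrays overlapped the control arrays and lay above the Bach2-vector arrays for this cytokine gene, whose difference from the control vector was 1.68 ± 1.04 (limma adjusted p = 0.301).

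Both chains of the IgE receptor varied widely. Fcer1a lay at -7.80, -2.94 and -2.50 with the control vector, at -9.01, -2.27 and -2.06 with the Bach2 vector and at 3.25, -1.59 and 5.05 in B220+ cells. Ms4a2 lay at -5.26, -3.33 and -3.19, at -6.73, -2.31 and -4.25, and at -0.87, -2.34 and 1.01 in the same order. B220+ array 2 was the lowest of its group for both chains, and array 1 was the lowest of both other groups. Fcer1a was not well above background on array 1 of the control vector or of the Bach2 vector, nor was Ms4a2 on array 1 of the Bach2 vector. Fcer1a was 6.65 ± 2.31 higher in B220+ cells than with the control vector (limma adjusted p = 0.0950) and Ms4a2 3.19 ± 1.17 higher (adjusted p = 0.109), and neither passed although the groups did not overlap.

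**Figure D1:**
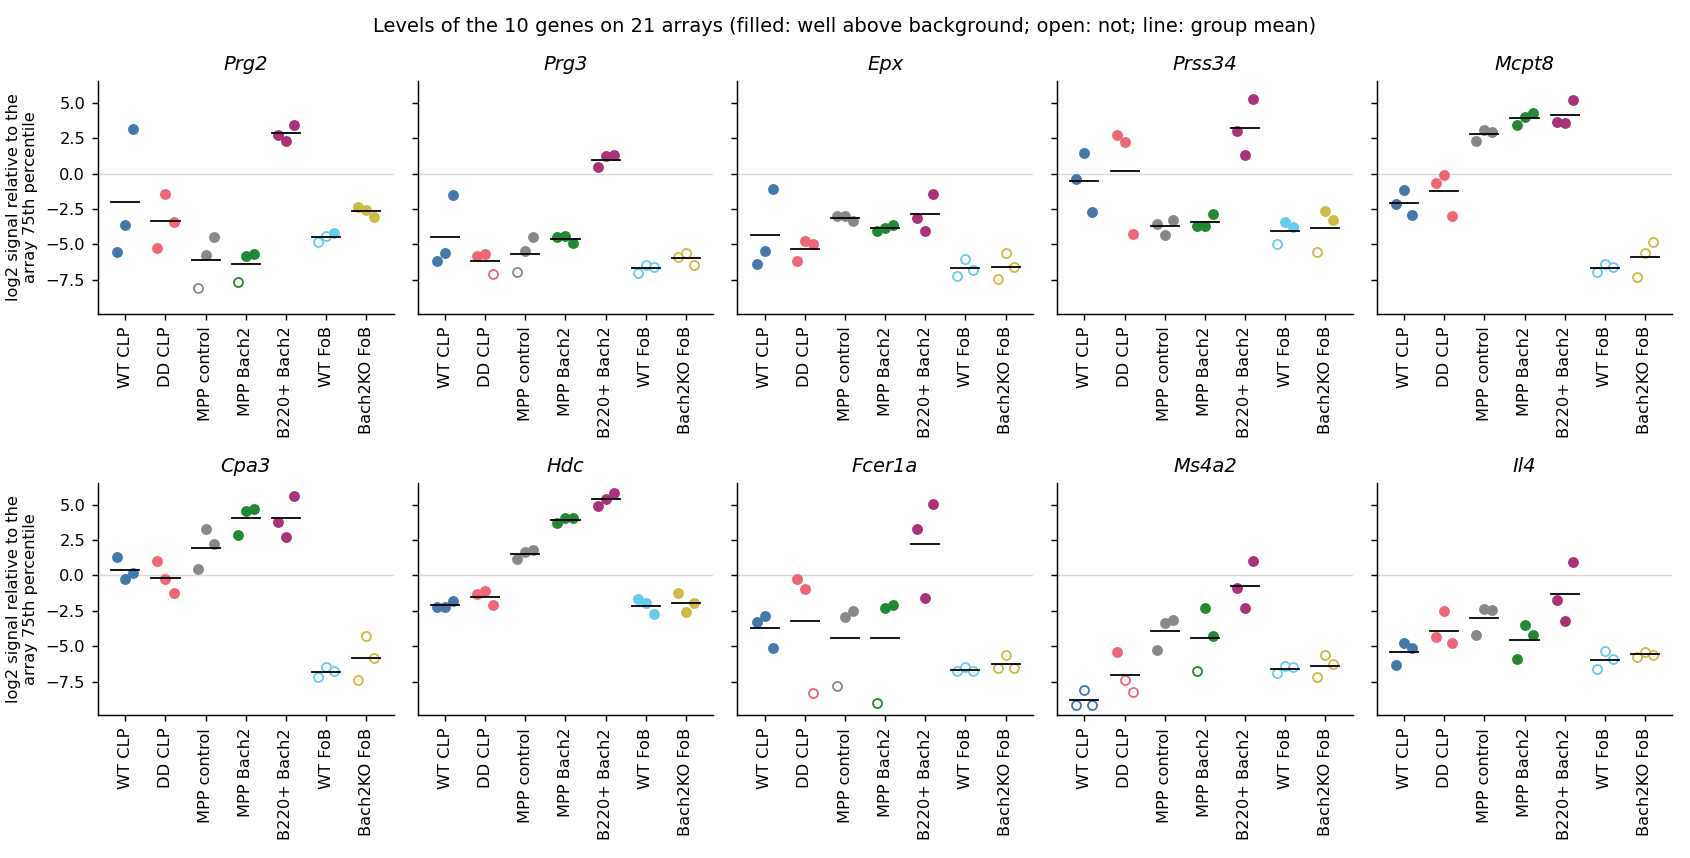
Level of each of the 10 genes on each of the 21 arrays (vertical axis, log2 signal relative to the 75th percentile of the array) by group (horizontal axis), with filled points well above background, open points not, and a line at the mean of 3 arrays. Prg2 reaches 2.33 to 3.45 in B220+ cells and stays at -4.45 or lower on the other 6 MPP arrays, while Hdc steps up over the 3 MPP groups.

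The slides on which the arrays were printed did not hold the groups evenly. Slide 1 held all 3 B220+ arrays and array 1 of both other MPP groups, and slide 2 held the other 4. Within slide 1 the B220+ mean was above the single control-vector array by 10.93 for Prg2, 7.98 for Prg3, 6.77 for Prss34 and 4.23 for Hdc. That control array was not well above background for Prg2 and Prg3, so their sizes within the slide are not exact. With slide as a block in the limma fit, 7 of the 10 genes passed in place of 4. The added genes were Cpa3 (adjusted p = 0.0428), Fcer1a (adjusted p = 0.0128) and Ms4a2 (adjusted p = 0.0268). On slide 1 the B220+ cells meet 1 array of each other group. Neither of these was well above background for Fcer1a, so that added call rests on background values there. Ms4a2 was well above background on the control-vector array, at -5.26, but not on the Bach2-vector array, so its call rests there in part on a background value. Cpa3 was well above background on both, at 0.45 and 2.83 in that order. With only probes well above background on all 9 MPP arrays, 6 genes could be tested and 2 passed, which were Prss34 and Hdc. Quantile normalization moved the median over all genes from -0.29 to -0.08, and the share of called genes that were higher from 38.4% to 48.6%, and left 4 members called.

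Set against Bach2-vector MPPs, with which they shared the vector, the B220+ cells had 4 of the 10 genes higher past the threshold, Prg2, Prg3, Prss34 and Hdc. The groups also differed in culture time, culture condition and the B220 gate. Over all genes 6.17% passed, 2.01% in the higher direction, and 6 members against 7.46% of genes did not overlap in that direction. Prg2 was 9.21 ± 0.87 higher (limma adjusted p = 0.000694), Prg3 5.59 ± 0.56 higher (adjusted p = 0.000874) and Prss34 6.63 ± 0.84 higher (adjusted p = 0.00261), or 591-fold, 48.2-fold and 98.9-fold. Prg2 was not well above background on Bach2-vector array 1. Hdc was 1.44 ± 0.30 higher (adjusted p = 0.0268), or 2.71-fold. Fcer1a, Ms4a2, Il4 and Epx were 6.68 ± 2.31, 3.70 ± 1.17, 3.22 ± 1.04 and 0.96 ± 0.56 higher on average and did not pass (adjusted p = 0.127, 0.101, 0.108 and 0.318). The Hdc call was lost when Bach2-vector replicate 1, 2 or 3 or B220+ replicate 2 was left out, with adjusted p of 0.0657, 0.0768, 0.0756 and 0.0820 and differences of 1.32 to 1.497, and with every probe tested (adjusted p = 0.0505). The means of Mcpt8 and Cpa3 were 0.26 ± 0.46 and 0.02 ± 0.90 apart between these groups (limma adjusted p = 0.751 and 0.992). Within slide 1 the differences were 10.49 for Prg2, against an array at background, 5.49 for Prg3, 6.88 for Prss34 and 1.67 for Hdc. Slide as a block added Fcer1a (adjusted p = 0.0218) and Ms4a2 (adjusted p = 0.0330), on the same background values. Quantile normalization moved the share of called genes that were higher from 32.5% to 42.9% and kept 4 members called. The control-vector, Bach2-vector and B220+ comparisons share arrays with each other.

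**Figure D2:**
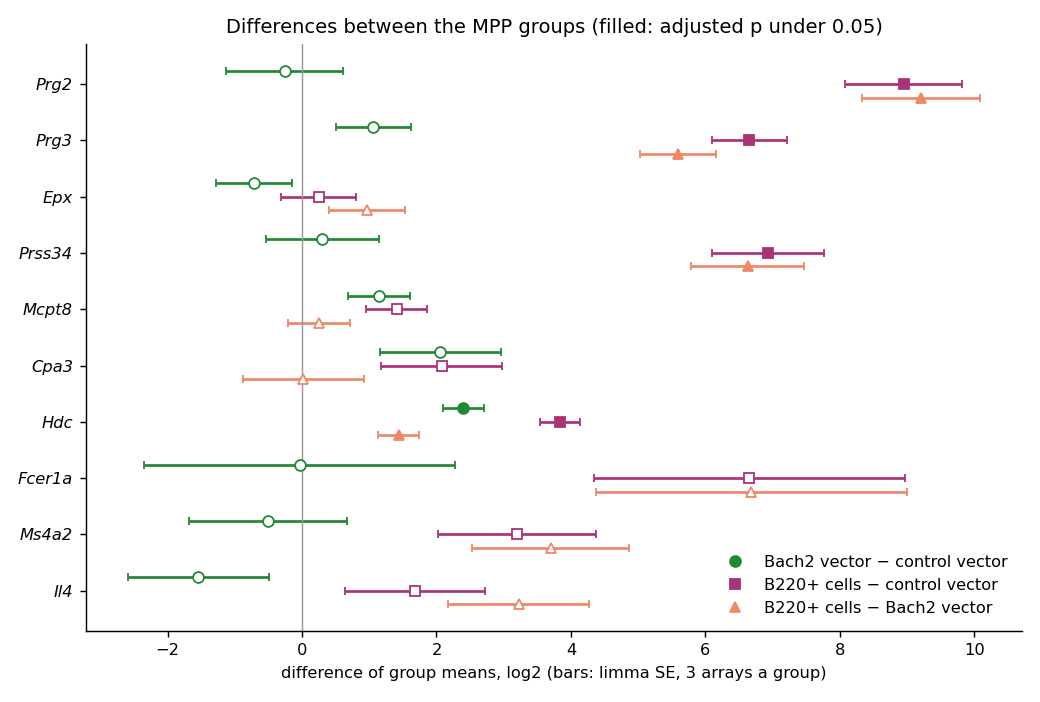
Difference of group means for each of the 10 genes (horizontal axis, log2; bars are the limma SE with 3 arrays a group) in the 3 comparisons among MPP groups, with filled symbols for an adjusted p under 0.05. Prg2, Prg3 and Prss34 are filled only in the comparisons of B220+ cells, at 5.59 to 9.21, and Hdc is filled in all 3.

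The Bach2 vector by itself, with both groups grown for 2 days in the same condition, went with a call for 1 of the 10 genes, against 1.8% of all genes. That gene was Hdc, 2.40 ± 0.30 higher with the Bach2 vector (limma adjusted p = 0.00610), or 5.28-fold. Hdc was higher by 2.56 within slide 1 and by 2.32 within slide 2. Mcpt8 was also above the control vector on every array, by 1.15 ± 0.46, but did not pass (adjusted p = 0.463). These 2 genes did not overlap in the higher direction, against 7.66% of all genes. Epx was lower by 0.72 ± 0.56 on average and did not overlap (adjusted p = 1.00), 1 gene against 7.29% of all genes in that direction. Cpa3 differed by 2.06 ± 0.90 (adjusted p = 0.567) with overlapping arrays, but was higher in 3 of 3 pairs of the same replicate number, with an adjusted p of 0.358 when the number was a block. Prg3 differed by 1.06 ± 0.56 (adjusted p = 0.793). Prg2, Prss34, Fcer1a, Ms4a2 and Il4 differed by -0.26, 0.30, -0.03, -0.50 and -1.54, overlapped between the groups and had an adjusted p of 1.00. Il4 was lower in 3 of 3 pairs (adjusted p = 0.810 with the block). The median difference of the 10 genes was 0.13, against -0.02 over all genes.

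Markers of other cells were read in the same groups. The labels call the B220+ group B220+ multipotent progenitors. In it Dntt, the terminal transferase of lymphoid progenitors, was 7.13 ± 0.25 higher than with the control vector (limma adjusted p = 5.65e-06) and Il7r, the interleukin-7 receptor, 4.99 ± 0.59 higher (adjusted p = 0.00116). Of the other lymphoid progenitor markers, Flt3 rose by 2.01 (limma adjusted p = 0.0163). Rag1, Rag2 and Kit differed by 1.94, 0.12 and 0.06 and did not pass (limma adjusted p = 0.256, 0.910 and 0.891). Rag1 and Rag2 lay at -6.18 and -5.07 on average in B220+ cells. The B-cell genes Pax5 and Ms4a1 lay at -5.80 and -7.17 on average, Pax5 well above background on all 3 B220+ arrays and Ms4a1 on none. Cd79b was the highest of the B-cell markers, at 3.63 against 3.20 with the control vector. Vpreb1 and Igll1 lay at -0.74 and -2.91, against -0.53 and -3.32. Pax5 was 0.86 lower than with the control vector without overlap, and none of the B-cell markers tested passed in that comparison. Of the 8 B-cell markers 5 were well above background on all 3 B220+ arrays, with a summed level of 3.31 to 4.07 against 3.03 to 3.74 with the control vector. All 8 neutrophil markers were well above background on every B220+ array, and their summed level of 7.63 to 8.07 overlapped the 7.79 to 8.07 of the control vector and lay partly above the 7.18 to 7.70 of the Bach2 vector. Within that list Camp and Ngp, secondary-granule genes, rose by 4.84 ± 0.74 and 5.85 ± 0.84 against the control vector (limma adjusted p = 0.00381 and 0.00288), with Ngp well above background on 1 of 3 control-vector arrays, and Prtn3, a primary-granule protease gene, fell by 2.04 ± 0.32 (adjusted p = 0.00400). The 5 monocyte markers, all well above background, summed to 4.76 to 5.14 in B220+ cells, 3.76 to 4.43 with the control vector and 2.99 to 3.59 with the Bach2 vector. Only Ms4a6c among them passed against the control vector, with a rise of 3.69 ± 0.55 (limma adjusted p = 0.00351). Csf1r, Ccr2 and F13a1 differed by 1.05, 0.39 and 1.31 and Lyz2 by -0.45, with overlapping arrays. The 3 megakaryocyte markers summed to -1.70 to -1.19 in B220+ cells, 2.99 to 3.52 with the control vector and 0.65 to 1.03 with the Bach2 vector. Among the megakaryocyte markers 1 was above background on none of the B220+ arrays. Of those, Pf4 fell by 6.96 and Gp9 rose by 1.68 against the control vector (limma adjusted p = 0.000498 and 0.0218). The 4 T-cell markers summed to 1.44 to 3.09 in B220+ cells and 3.70 to 4.19 with the control vector. Of those, Thy1 fell in B220+ cells by 2.28 and Cd3g was at least 7.58-fold higher (limma adjusted p = 0.0337 and 0.000964). Cd3g was well above background on none of the control-vector or Bach2-vector arrays. It and Ngp entered the test through the B220+ group, where they are higher. The 5 erythroid markers summed to -2.24 to -0.17 and -1.89 to -1.27. The 6 lymphoid progenitor markers summed to 6.34 to 6.57 in B220+ cells against 3.89 to 4.54, and the 4 multipotent progenitor markers to 6.00 to 6.35 against 5.51 to 6.18. The part of these cells in the levels of the 10 genes was not tested.

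CLPs showed no call among the 9 members tested in limma between DD and WT. The adjusted p was 0.999 for each of them, and 1 of 16456 genes passed (0.00608%). At an unadjusted p under 0.05 there was 1 member, Il4, against 3.76% of all genes. Il4 lay at -6.30, -4.78 and -5.11 in WT CLPs and at -4.36, -2.54 and -4.79 in DD CLPs. The groups of this cytokine gene overlapped, with a difference of 1.499 ± 0.65. Ms4a2 was well above background on 1 CLP array, DD array 1 at -5.42, and was not tested. The median difference of the 9 genes was 0.55, against 0.04 over all genes, and 5 of them had the higher mean in DD CLPs.

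The eosinophil granule genes spread widely within WT CLPs. Prg2 lay at -5.51, -3.62 and 3.17 in WT CLPs and at -5.23, -1.40 and -3.42 in DD CLPs. Prg3 lay at -6.19, -5.64 and -1.50 in WT CLPs and at -5.79, -5.64 and -7.12 in DD CLPs. Epx lay at -6.37, -5.44 and -1.09 in WT CLPs and at -6.16, -4.75 and -4.97 in DD CLPs. WT array 3 was the highest CLP array for all 3 eosinophil granule genes. It exceeded the next-highest CLP array 23.8-fold for Prg2, 17.7-fold for Prg3 and 12.6-fold for Epx. Ranked by that gap among 16322 genes, Prg2 was number 2, Prg3 number 3 and Epx number 6. The DD minus WT differences were -1.37 ± 2.00, -1.74 ± 1.12 and -0.99 ± 1.21 for Prg2, Prg3 and Epx, and 1.21, -0.27 and 0.61 without WT array 3. Within slides 1, 2 and 3, which each held 1 array of each genotype, Prg2 differed by 0.27, 2.21 and -6.59. WT array 3 also had the highest summed level of the 8 neutrophil markers among the CLP arrays, 6.06 against 4.64 to 5.77, and of the 5 erythroid markers, 1.22 against -1.08 to 0.66. The part of those cells in the levels of Prg2, Prg3 and Epx was not tested.

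The basophil proteases and the alpha chain of the IgE receptor followed another course over the same arrays. Prss34 lay at -0.38, 1.48 and -2.70 in WT CLPs and at 2.73, 2.23 and -4.29 in DD CLPs. Mcpt8 lay at -2.15, -1.15 and -2.89 in WT CLPs and at -0.66, -0.06 and -3.01 in DD CLPs. Fcer1a lay at -3.28, -2.84 and -5.12 in WT CLPs and at -0.24, -0.99 and -8.34 in DD CLPs, where the last value was not well above background. Array 3 was the lowest of each genotype for these 3 genes, and DD arrays 1 and 2 were the highest of all CLP arrays. Their DD minus WT differences were 0.76 ± 1.80, 0.82 ± 0.78 and 0.55 ± 1.88, and that of Prss34 was 3.01 without DD array 3. Within slides 1, 2 and 3 Prss34 differed by 3.11, 0.75 and -1.59 between DD and WT. Over the 6 CLP arrays Pearson's r was 0.868 to 0.982 within Prg2, Prg3 and Epx, 0.894 to 0.969 within Prss34, Mcpt8 and Fcer1a, and -0.485 to -0.00677 between the trios. These coefficients describe 6 arrays of shared slides and amplification, and the trios were noticed in the same values. The split recurred only in part over the 9 MPP arrays, by deviations from group means. The pairs within Prss34, Mcpt8 and Fcer1a gave an r of 0.56 to 0.77, and Prg2 with Prg3 gave 0.74. However, r was -0.05 for Prg3 with Epx and 0.24 for Prg2 with Epx. Between the trios it reached 0.92 for Epx with Prss34 and 0.85 for Prg2 with Fcer1a, and was 0.03 for Prg3 with Prss34.

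Cpa3 and Hdc varied less over CLPs. Cpa3 lay at 1.32, -0.25 and 0.19 in WT CLPs and at 1.02, -0.27 and -1.24 in DD CLPs. Hdc lay at -2.23, -2.20 and -1.78 in WT CLPs and at -1.31, -1.07 and -2.10 in DD CLPs. The genotypes overlapped for both the carboxypeptidase and the histamine-forming enzyme gene, with differences of -0.58 ± 0.64 and 0.58 ± 0.39.

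**Figure D3:**
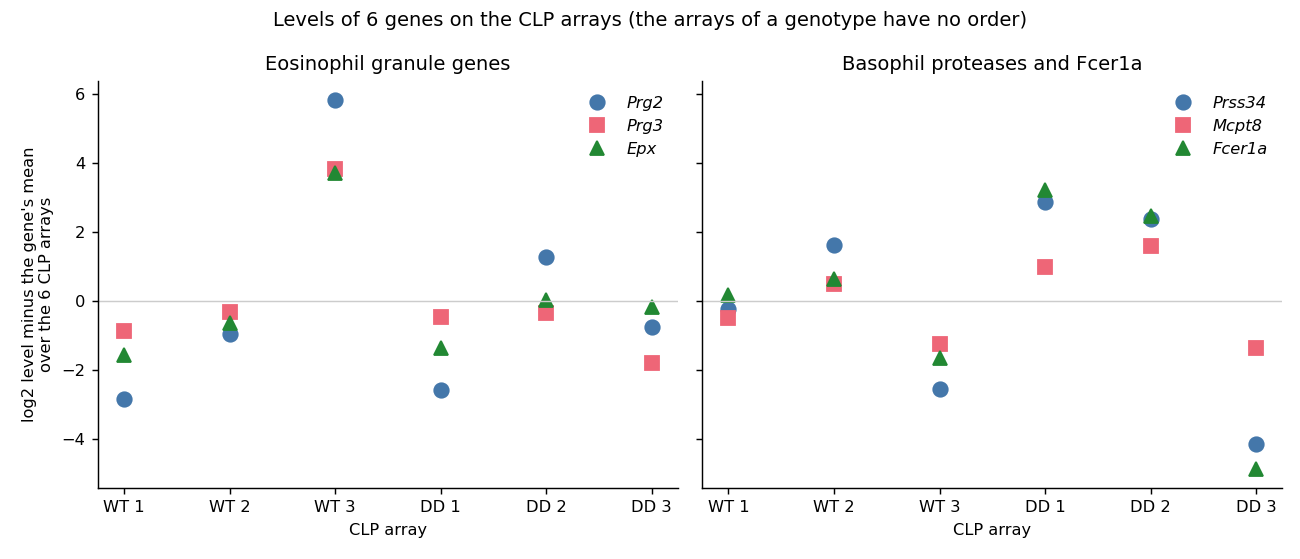
Level of Prg2, Prg3 and Epx (left) and of Prss34, Mcpt8 and Fcer1a (right) on the 6 CLP arrays (horizontal axis), as log2 level minus the mean of the gene over those arrays (vertical axis). WT array 3 stands highest on the left, 23.8-fold above the next array for Prg2, and array 3 is the lowest of each genotype on the right.

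In follicular B cells 7 of the 10 genes were well above background on 0 of the 6 arrays, namely Prg3, Epx, Mcpt8, Cpa3, Fcer1a, Ms4a2 and Il4. Of the 3 tested, Prg2 passed in limma, having entered the test through the Bach2KO group, where it is higher. Of all 13068 genes tested 2.71% passed, 2.2% in the higher direction. Prg2 lay at -4.80, -4.41 and -4.19 in WT and at -2.38, -2.60 and -3.02 in Bach2KO cells. All Bach2KO arrays were above all WT arrays, and the gene was well above background on 1 of 3 WT arrays and on all 3 Bach2KO arrays. The difference was 1.80 ± 0.33 (adjusted p = 0.0219), or 3.48-fold. It was 2.42 within slide 1 and 1.49 within slide 2. The call was lost on leaving out WT replicate 1, 2 or 3 or Bach2KO replicate 2 or 3, with adjusted p of 0.0608, 0.0805, 0.0690, 0.0596 and 0.0790 and differences of 1.63 to 1.98. Normexp background correction gave 0.53 ± 0.28 (adjusted p = 0.889).

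Hdc and Prss34 were also measured in follicular B cells. Hdc lay at -1.70, -1.94 and -2.74 in WT and at -1.26, -2.60 and -1.98 in Bach2KO cells. Prss34 lay at -4.95, -3.41 and -3.76 in WT and at -5.56, -2.67 and -3.24 in Bach2KO cells, with array 1 of each genotype not well above background. Both genes overlapped between the genotypes, and their differences were 0.18 ± 0.43 and 0.22 ± 0.73 (limma adjusted p = 0.893 and 0.924). The Bach2KO cells also had a higher summed level of the 5 erythroid markers, 2.06 to 4.00 against -1.44 to 0.69 in WT. The 8 neutrophil markers summed to 3.46 to 5.64 in Bach2KO and 0.62 to 4.04 in WT cells. These sums overlapped, and none of the neutrophil markers tested passed. Camp, S100a9 and Ngp were still higher in Bach2KO cells without overlap, by 2.85, 3.23 and 3.26 (limma adjusted p = 0.136, 0.168 and 0.169). Ltf and S100a8 were higher by 3.02 and 3.06 with overlap, and Elane differed by -0.27. Mpo and Prtn3 were not tested. Hba-a1, a haemoglobin gene, was 3.74 ± 0.77 higher (limma adjusted p = 0.0393). Of the 4 multipotent progenitor markers, whose sum was 5.43 to 5.72 in Bach2KO and 2.53 to 2.89 in WT cells, Ly6a rose by 3.17 and Flt3 fell by 1.68 (limma adjusted p = 0.000826 and 0.0224), Kit was well above background on none of the Bach2KO arrays and Cd34 on none of the 6. The 3 megakaryocyte markers summed to -3.27 to -1.503 in Bach2KO and -4.88 to -4.35 in WT cells. Pf4, a platelet chemokine gene, was at least 4.02-fold higher in Bach2KO cells (limma adjusted p = 0.00928). It was well above background on none of the WT arrays and entered the test through the Bach2KO group. The other markers of that list were well above background on no FoB array. The 5 monocyte markers summed to 3.67 to 4.21 and 3.47 to 3.77. The 8 B-cell markers summed to 7.69 to 8.40 in Bach2KO and 8.62 to 9.49 in WT cells. The 4 T-cell markers summed to 3.09 to 4.69 in Bach2KO and 3.12 to 4.05 in WT cells. Only Thy1 among them passed, with a rise of 1.73 in Bach2KO cells (limma adjusted p = 0.0164). The part of such cells in the level of Prg2 was not tested.

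Taken by group mean, B220+ cells ranked first of the 7 groups for all 10 genes, a description that crosses experiments labelled by different protocols. The group next in order overlapped the B220+ cells for 7 genes, and did not for Prg3, Hdc and Ms4a2. For Prg2 and Prg3 the next group was WT CLPs, whose highest array was array 3. For Prss34 and Fcer1a it was DD CLPs, for Mcpt8, Cpa3 and Hdc Bach2-vector MPPs, and for Epx, Ms4a2 and Il4 control-vector MPPs. The order among groups not well above background, such as both FoB groups for 7 of the genes, has no meaning.

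Other genes of the programme were read from 8 lists of 87 genes, 85 of which had a named probe. Against the control vector, 7 of the 78 tested rose and 9 fell in B220+ cells, against 12.1% of all genes called and 4.65% called higher, with a median difference of -0.12 against -0.29 over all genes. The mast-cell granule protease list, which holds chymases and tryptases, had 0 of 13 called in limma. Several of its genes were near background, so the absence of a call says little about them. Mcpt1 was well above background on none of the B220+ arrays, and Cma1 and Mcpt9 on 1 each. Mcpt2 was not tested, and Tpsab1 had no named probe. Of 9 tested eosinophil surface and granule genes, Siglecf rose by 2.58 ± 0.33 (adjusted p = 0.00161), Il5ra, the interleukin-5 receptor, by 2.99 ± 0.56 (adjusted p = 0.00905), and Ear10, an eosinophil-associated ribonuclease, fell by 1.58 ± 0.40 (adjusted p = 0.0337). Ccr3, the eotaxin receptor of eosinophils, differed by -0.08 ± 0.54 (adjusted p = 0.938).

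Both listed chains of the interleukin-18 receptor rose. Il18r1 lay at a mean of -6.23 with the control vector, measured on 2 of 3 arrays, and at 1.72 in B220+ cells, a difference of 7.95 ± 1.12 (limma adjusted p = 0.00260), 1 call among 10 growth-factor and alarmin receptors. Its partner Il18rap, the 1 called among 7 basophil and mast-cell surface genes, rose by 2.03 ± 0.35 (adjusted p = 0.00651). Il13, a type 2 cytokine, was the 1 called of 5 tested cytokine and chemokine genes. It was not well above background on any control-vector array, and entered the test through the B220+ group, where it is higher. It was at least 8.72-fold higher there (limma adjusted p = 0.00102). That bound takes for each control array the higher of its dimmest measured signal and the probe's own. Kit, the stem-cell factor receptor of mast cells, lay at 3.71 with the control vector and 3.77 in B220+ cells (adjusted p = 0.891).

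Of 7 tested enzymes of lipid mediators, 4 fell and 3 did not pass, with 12.1% of all genes called. Those that fell were Pla2g4a by 2.87 ± 0.40, Ltc4s by 2.45 ± 0.38, Ptgs1 by 2.77 ± 0.45 and Ptgs2 by 3.53 ± 0.65 (limma adjusted p = 0.00232, 0.00402, 0.00515 and 0.00861). Pla2g4a frees arachidonic acid, Ltc4s makes leukotriene C4, and Ptgs1 and Ptgs2 are the cyclooxygenases. Ptgs2 was well above background on 1 of 3 B220+ arrays. Among 16 transcription regulators Irf8 rose by 1.76 ± 0.29 (adjusted p = 0.00553), and 4 fell, among them Xbp1, Bhlhe40 and Cebpb by 1.70, 1.62 and 0.94.  Gata1 and Gata2, transcription factors of mast cells and basophils, differed by 2.79 ± 1.08 and -0.52 ± 0.88 and did not pass (adjusted p = 0.124 and 0.719). Of 11 IgE receptor signalling genes 1 rose, the kinase gene Fyn, by 1.85 ± 0.26 (adjusted p = 0.00271). Fcer1g, the shared gamma chain, lay at 5.22 with the control vector and 5.06 in B220+ cells (adjusted p = 0.764).

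Against Bach2-vector MPPs 5 of the 78 genes rose and 6 fell in B220+ cells, with 6.17% of all genes called and 2.01% called higher. Il18r1, Il18rap, Irf8, Tnf and Il13 rose, Il18r1 by 5.43 ± 1.12 (limma adjusted p = 0.0244) and Il13 at least 8.92-fold (adjusted p = 0.00206). Il13 had again entered the test through the B220+ group. Ltc4s fell by 3.61 ± 0.38, Ptgs1 by 3.79 ± 0.45, and Hpgds, a prostaglandin D synthase, by 3.67 ± 0.61 (adjusted p = 0.00101, 0.00196 and 0.00928). Hpgds was well above background on 2 of 3 B220+ arrays. Bhlhe40 fell by 3.22 ± 0.33, Xbp1 by 1.21 and Tal1 by 1.07. Siglecf stood at a mean of 2.99 with the Bach2 vector and 3.03 in B220+ cells (adjusted p = 0.956).

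**Figure D4:**
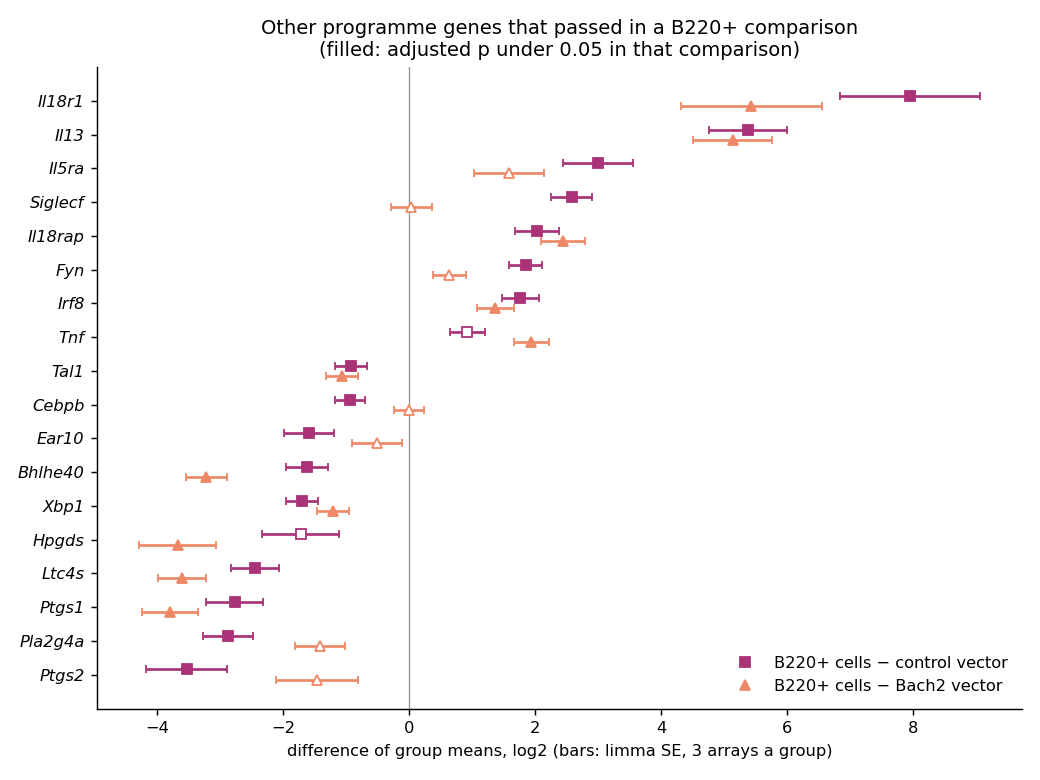
Difference of group means (horizontal axis, log2; bars are the limma SE with 3 arrays a group) for the listed genes other than the 10 that passed in at least 1 comparison of B220+ cells, with filled symbols for an adjusted p under 0.05. Il18r1 and Il13 lie farthest to the right, at 5.13 to 7.95, where the values of Il13 rest on reference groups not well above background, and the lipid-mediator enzymes lie on the left.

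The Bach2 vector alone gave 2 calls among the 78 listed genes, both higher than with the control vector, against 1.8% of all genes called. Siglecf, an inhibitory lectin of eosinophils, rose by 2.54 ± 0.33 (limma adjusted p = 0.00683), or 5.83-fold, and Bhlhe40 by 1.60 ± 0.33 (adjusted p = 0.0484). Between DD and WT CLPs 0 of 75 listed genes passed in limma. In follicular B cells 11 of 53 rose and 2 fell in Bach2KO, against 2.71% of all genes called and 2.2% called higher. Fcer1g rose 23.1-fold, a difference of 4.53 ± 0.30 (adjusted p = 0.000197), although both other chains of the receptor were below background there. Cd9 and Cd63, tetraspanins of activated basophils and of many other cells, rose by 2.95 ± 0.34 and 3.04 ± 0.46 (adjusted p = 0.00227 and 0.00897). The chemokine genes Ccl3 and Ccl4 and the cytokine gene Il6 rose by 3.09, 2.15 and 2.32. Siglecf, Il3ra, Hpgds, Cebpb and Nfil3 rose by 1.67, 1.54, 1.55, 1.81 and 1.83. Il5ra fell by 2.69 ± 0.32 and Syk, a kinase of the IgE and B-cell receptors, by 1.52 ± 0.29 (adjusted p = 0.00238 and 0.0259). The protease list had 0 of 6 called there.

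Over the 21 arrays, the mean profile of the 10 genes was most like that of Csrp3, with a Pearson's r of 0.946 among 17357 genes ranked. Gata1 followed with 0.909, Il1rl1, the interleukin-33 receptor, with 0.907, then Pi16, Fn1, Vit, Runx1t1 and Matk with 0.899, 0.894, 0.890, 0.887 and 0.886. Fn1, the fibronectin gene, had a mean of -2.07 ± 0.74 (SD, n = 3) with the control vector and 3.05 ± 0.25 in B220+ cells. Taken singly, Cpa3 was most like Akr1c12 with an r of 0.973, Mcpt8 like Crnde with 0.971, Hdc like Anxa5 with 0.950 and Ms4a2 like Cd200r4 with 0.905. Prg3 was most like Parm1 with 0.892, Epx like Lima1 with 0.889, Il4 like Csrp3 with 0.882 and Prg2 like Ticam2 with 0.804. Prss34 was most like Noxo1 with 0.845, and Fcer1a most like Prss34 with 0.833. The 21 points fall into 3 experiments that differ in cell type and labelling, which all these coefficients share, and no p is given for them.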

How the data were processed

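Cy3-labelled RNA was hybridised to 1-colour Agilent arrays of 62976 spots, 3671 of them controls. Per the labels, CLP and MPP RNA had 2 rounds of amplification, and FoB RNA a linear amplification that the labels describe as of 1 RNA sample. The deposited scanner files hold spot intensity values, processed by Agilent Feature Extraction 10.7.3.1 per the file headers and 9.1 per the submitters' processing notes, and the headers name mm9. The authors' deposited value table equals the scanner's processed signal on all 21 arrays (largest difference 0). Spots flagged as outliers were left out, log2 signals were centred on the 75th percentile of each array, and spots of a probe were averaged (10 for Il4). Probes were named through RefSeq accessions (26413 of 55681), 1 probe a gene by highest mean.

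Within each experiment limma 3.58.1 (R 4.3.3) was fitted without a block to genes well above background on at least 3 arrays, with Benjamini-Hochberg adjustment and a threshold of 0.05. The methods were tested on simulated data first. Normexp (offset 50) used the median signal column, since the mean signal column was not used here. Replicate numbers were taken to pair samples where every same-number correlation of deviations exceeded 0.1, from the data and not from the labels. This held in CLPs (0.216 to 0.434), in the 2 vector groups (0.300 to 0.649) and in FoB (0.534 to 0.859). It did not hold for B220+ cells (-0.059 to 0.125). The highest correlation between different numbers was 0.072 in CLPs, 0.312 in the vector groups and 0.499 in FoB. In the vector groups it exceeded the lowest same-number value, so pairing is less clear there. Arrays of the same number also shared a slide in CLPs, the vector groups and FoB. Same-number correlations therefore do not tell paired samples from a shared slide. All B220+ arrays lay on slide 1, which limits that comparison in the same way. Members and lists were chosen with earlier results of these data known. The text names all 10 members, up to 4 passing genes a list and comparison by smallest p, and the most alike genes. Ccr3, Kit, Gata2, Fcer1g in MPPs and the single marker genes named beyond that rule were chosen after their values were seen.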

Additional observations from a re-analysis of the deposited data

How the results depend on the processing

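The number of members called kept within 1.5 times its value under most alternatives. In B220+ cells against the control vector it went from 4 to 7 with slide as a block, and to 2 when probes had to be well above background on every array, and to 5 with the replicate block (which added Mcpt8, adjusted p = 0.0387 in limma) and with normexp correction. Against the Bach2 vector the filter on every array gave 2 and the replicate block 4. In FoB the call of Prg2 was lost, leaving 0 of the members, with normexp correction, with no filter on dim probes (adjusted p = 0.0654), with the filter on every array, where Prg2 could not be tested, and with every probe tested (0.0538). Leaving out 1 array at a time gave 0 to 1 calls in FoB, 4 in B220+ cells against the control vector, 3 to 4 against the Bach2 vector, 1 for the vector and 0 in CLPs. The replicate block gave 1 call for the vector, 1 in FoB and 0 in CLPs, with the same genes as without it. The trended, robust prior changed no member's call. The series value table holds the same signals as the main fit, so it could change none. Each member had 1 probe, so no other probe could be read. Over all genes the number called ranged from 0 to 27 in CLPs, 96 to 412 for the vector, 1028 to 2638 and 448 to 1699 in the B220+ comparisons and 106 to 2976 in FoB, where 2976 came with the replicate block, 1195 with the slide block and 106 with normexp, against 354. The causes were not tested. Signal near background limits the FoB values, where the 75th percentile of Bach2KO array 2 was at an intensity of 97.3.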
